A study of Mus musculus with 69 samples.

Results

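The RNA of 10 circadian output genes was followed in cultured vascular cells under metabolic and humoral stress. The genes were Nfil3, the PAR bZIP factors Dbp, Tef and Hlf, the period genes Per1, Per2 and Per3, the nuclear receptors Nr1d1 and Nr1d2 (REV-ERB alpha and beta) and Ciart (CHRONO). They were taken by symbol through their Ensembl identifiers, and all 10 were found among the 56953 gene rows of the count tables. All 10 had enough reads to be tested in each of the 26 comparisons made.

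In mammalian cells BMAL1 and CLOCK bind E-box elements and drive the Per, Cry, Nr1d, Ciart and PAR bZIP genes, and the PER and CRY proteins later shut this drive off. REV-ERB proteins repress Bmal1 and Nfil3 through ROR elements. NFIL3 and the PAR bZIP proteins compete for the same D-box sequences, NFIL3 as a repressor and DBP, TEF and HLF as activators. In the vessel wall the clock is known for daily rhythms of tone, thrombosis and metabolism, and serum or its withdrawal can reset it in culture.

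Primary vascular smooth muscle cells (VSMC) came from the thoracic and abdominal aorta of male C57BL/6 mice, either with an intact EGF receptor gene (WT VSMC) or from animals in which Cre driven by the SM22 promoter removed a floxed Egfr (KO VSMC). Endothelial cells (EC) came from the heart after bead selection for CD31+ and CD45- cells. VSMC were first kept without serum for 24 h, a step the sources used here do not state for EC. All cultures were then kept for 24 h under Control conditions, under HG + FFA (20 mM glucose with free fatty acids, 100 µM by the sample labels and 100 µM each of oleate and palmitate by the study's methods), under AII + NA (30 nM angiotensin II with 300 nM of a catecholamine) or under ALL stressors at once. The labels name epinephrine where the study's methods name norepinephrine. Cells of an animal treated together formed a numbered set, and 4 sets of WT VSMC (1 to 4), 4 of KO VSMC (5 to 8) and 10 of EC (9 to 18) gave 16, 15 and 38 libraries. The ALL library of set 5, the Control library of set 10 and the AII + NA library of set 15 were not analysed here. EC sets 17 and 18 came from a single animal, EC sets 9 and 10 from the animals of WT VSMC sets 1 and 2, and EC sets 15 and 16, although labelled WT, from animals whose VSMC were labelled EGFR-KOsmc. The time of day of the harvest is not given in the sources used here, and each set has a single time point, so that phase and amplitude of a rhythm cannot be told apart.

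Total counts lay between 17166133 and 43240489 per library. Egfr, the targeted gene, had set means of 249 to 433 FPM (counts scaled to a common library size by TMM) in WT VSMC and of 0.949 to 1.80 FPM in KO VSMC sets 6 to 8, but of 36.3 FPM in set 5. In EC sets 15 and 16 it stood at 9.40 and 2.65 FPM, the lowest of the EC sets. The 6 smooth muscle markers summed to between 346 and 2119 FPM in the libraries of WT VSMC and to between 686 and 3443 FPM in KO VSMC. Most of that sum was Acta2, while Tagln stayed at or under 6.59 FPM in WT VSMC. The 5 fibroblast markers summed to between 3954 and 11437 FPM in WT VSMC and to between 1225 and 6285 FPM in KO VSMC. The 7 endothelial markers summed to set means of 535 to 4072 FPM in most EC sets but of 50.2, 125 and 54.4 FPM in sets 9, 11 and 13, which is low for cells labelled EC. In these bulk libraries fewer cells of a type and less RNA per cell cannot be told apart. VSMC carry another batch label than EC, so that cell type and batch cannot be told apart either.

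The promoters of Nfil3, on which most results below turn, of Ciart and Per1, which are discussed with Bmal1 below, and of Per3, which holds a pair of D-boxes, are shown as the 250 bases before the canonical start site in GRCm39. Capitals mark matches to the E-box CACGTG, to the D-box letters TTATGTAA, TTACGTAA or TTACATAA, or to the ROR element TAGGTCA, each searched on both strands together with the cyclic AMP response element TGACGTCA and the CArG box. In GRCm39 the genes themselves span chr13:53121245-53137010 (Nfil3), chr3:95785815-95789991 (Ciart), chr11:68986035-69002300 (Per1) and chr4:151081373-151129140 (Per3), while Dbp lies at chr7:45354512-45359627, Per2 at chr1:91343700-91387069 and Nr1d1 at chr11:98658752-98666188. The starts of Nfil3, Ciart, Per1, Tef, Per2 and Nr1d1 used here lie inside their annotated spans, because another transcript begins further upstream.
Nfil3 (chr13:53135368-53135617, minus strand): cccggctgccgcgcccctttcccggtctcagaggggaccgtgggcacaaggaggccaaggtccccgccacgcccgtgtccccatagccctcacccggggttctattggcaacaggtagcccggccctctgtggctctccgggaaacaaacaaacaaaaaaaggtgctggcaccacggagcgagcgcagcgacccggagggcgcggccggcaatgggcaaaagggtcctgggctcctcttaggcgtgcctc
Ciart (chr3:95789557-95789806, minus strand): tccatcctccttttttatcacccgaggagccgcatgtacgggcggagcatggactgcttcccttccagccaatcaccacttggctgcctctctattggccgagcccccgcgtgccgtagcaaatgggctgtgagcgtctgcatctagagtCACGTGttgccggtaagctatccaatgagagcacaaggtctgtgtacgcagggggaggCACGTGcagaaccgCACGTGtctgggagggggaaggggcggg
Per1 (chr11:68989018-68989267, plus strand): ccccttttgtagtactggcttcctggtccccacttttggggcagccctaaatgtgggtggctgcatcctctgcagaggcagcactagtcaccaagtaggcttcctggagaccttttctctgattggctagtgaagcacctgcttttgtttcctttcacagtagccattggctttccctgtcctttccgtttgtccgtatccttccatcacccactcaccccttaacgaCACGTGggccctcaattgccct
Per3 (chr4:151129141-151129390, minus strand): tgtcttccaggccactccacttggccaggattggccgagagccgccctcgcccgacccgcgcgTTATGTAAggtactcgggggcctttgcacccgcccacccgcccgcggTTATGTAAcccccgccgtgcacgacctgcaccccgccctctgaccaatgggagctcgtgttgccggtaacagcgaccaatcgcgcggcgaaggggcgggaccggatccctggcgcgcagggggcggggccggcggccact

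Ciart held 3 E-boxes, starting 100, 42 and 28 bases before its start site, Per1 held 1 at 22 bases and Tef 1 at 138 bases, where 6.26% of 21770 promoters of this length hold at least 1. D-boxes were found in Per3, at 187 and 140 bases, and in Per2, at 125 bases, against 0.937% of all promoters. A ROR element stood 189 bases before the start of Dbp, against 2.17% of all promoters. None of these letters was found in the windows of Nfil3, Hlf, Nr1d1 and Nr1d2, and neither the cyclic AMP response element (1.69% of promoters) nor the CArG box (1.4%) in any of the 10. E-box and cyclic AMP response element read the same on both strands, and no matches overlapped.

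Under Control conditions Nr1d1, Tef and Dbp were the most abundant of the 10 per length in WT VSMC, and Hlf the least. Levels are given as FPKM (FPM per kilobase of exon) with the SD. Nr1d1 stood at 31.0 ± 13.2, Tef at 22.6 ± 2.65 and Dbp at 22.5 ± 6.22 FPKM (n = 4 each), which did not differ beyond their spread. Nr1d2 followed at 8.04 ± 1.52 FPKM. Nfil3 at 4.57 ± 0.282, Per1 at 4.43 ± 1.51 and Per3 at 4.26 ± 1.90 FPKM were again not separable. Per2 stood at 1.13 ± 0.164, Ciart at 0.805 ± 0.816 and Hlf at 0.0857 ± 0.0375 FPKM. Hlf had 10 to 29 counts per Control library of WT VSMC and Ciart 24 to 173, against 635 to 789 for Nfil3, so that the former are the least precise. Of the exon bases of Nr1d1, 52.8% overlap Thra on the opposite strand. The options given for the counting name no strand setting and none for reads that overlap both genes. Such reads may be lost or credited to either gene, so the level of Nr1d1 may be off in a direction not known here.

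**Figure D1:**
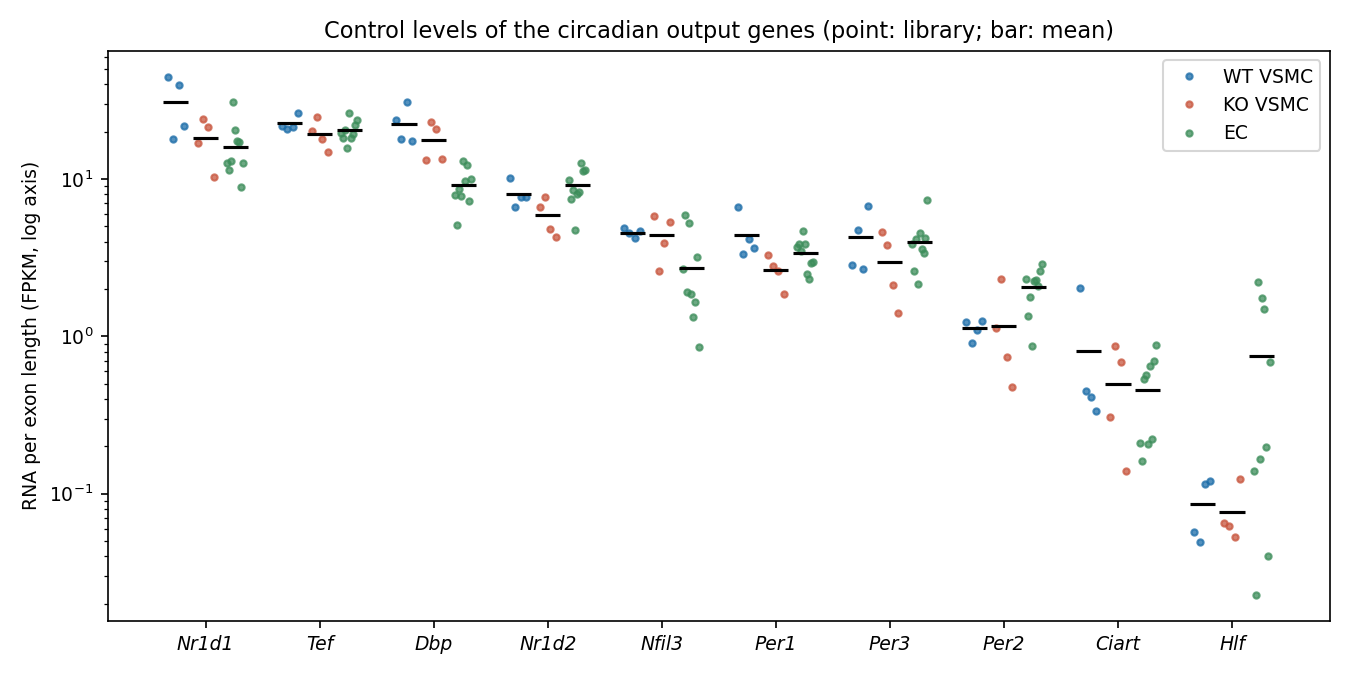
Control levels of the 10 genes per exon length (FPKM, log axis), ordered by the mean in WT VSMC, with a point per library (4 WT VSMC, 4 KO VSMC, 9 EC) and a bar at the mean. Nr1d1, Tef and Dbp lead in WT VSMC, Dbp is lower in EC, and Hlf ranges widely among the EC libraries.

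Nfil3, the bZIP repressor of D-box genes, was the only member to pass against Control under a stressor in edgeR. In Control WT VSMC it stood at 24.1, 22.4, 20.8 and 23.2 FPM in sets 1 to 4. Under ALL stressors the same sets reached 35.2, 51.4, 30.7 and 77.4 FPM. Every ALL library lay above every Control library, and sets 2 and 4 rose most. The log2FC was 1.02 ± 0.24 (SE) with an FDR of 0.0184 in edgeR's quasi-likelihood test and of 0.0122 in DESeq2, a 2.03-fold increase that met the DEG rule of the study. It was the only one of the 10 genes to pass in edgeR, and 1 of 10 lies near the share of all genes. Of the 16905 genes tested 7.45% passed, 3.92% did so upwards and 2.22% met the DEG rule. DESeq2 also called Per2 and Nr1d1 (FDR 0.0262 and 0.0380). For Nfil3 each set was higher than its own Control, by 0.542 to 1.74 on the log2 scale.

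AII + NA without the metabolic stressors gave a similar picture. Nfil3 stood at 36.8, 51.1, 32.4 and 91.7 FPM in sets 1 to 4, again above every Control library. The log2FC of 1.13 ± 0.25 (SE) had an unadjusted p of 0.000294 but an FDR of 0.121 in edgeR, against 0.0255 in DESeq2. Only 0.0532% of the genes passed this comparison. Under HG + FFA the libraries stood at 29.9, 21.5, 24.4 and 19.6 FPM, overlapping Control, with a log2FC of 0.11 ± 0.24 (SE, edgeR FDR 0.915). ALL against HG + FFA gave 0.91 ± 0.25 (SE, edgeR FDR 0.154), where 0.0414% of genes passed, and ALL against AII + NA gave -0.11 ± 0.24 (SE, edgeR FDR 0.895), where 1.36% did. The departure from additivity on the log2 scale was -0.22 ± 0.34 (SE, unadjusted p = 0.529), and no gene passed that test in edgeR or DESeq2 in any cell type.

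The median log2FC of the 10 genes in WT VSMC was 0.09 under HG + FFA, -0.11 under AII + NA and 0.02 under ALL, against -0.01 over all genes in each comparison. At an unadjusted p under 0.05 edgeR had 2, 2 and 3 members in this order, where 11.2%, 9.42% and 21.7% of all genes lay under it. DESeq2 called 0, 1 and 3 members, and 294, 169 and 1645 of the 16905 genes.

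The rise of Nfil3 under ALL stressors depended on the sets and on the model. Without set 2 it was 0.97 ± 0.29 (SE) and its edgeR FDR 0.0857, and without set 4 it was 0.78 ± 0.17 (SE, edgeR FDR 0.0235). Without the set number as a block it was 1.11 ± 0.32 (SE, edgeR FDR 0.457), a model in which 0 of the 16905 genes passed.

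**Figure D2:**
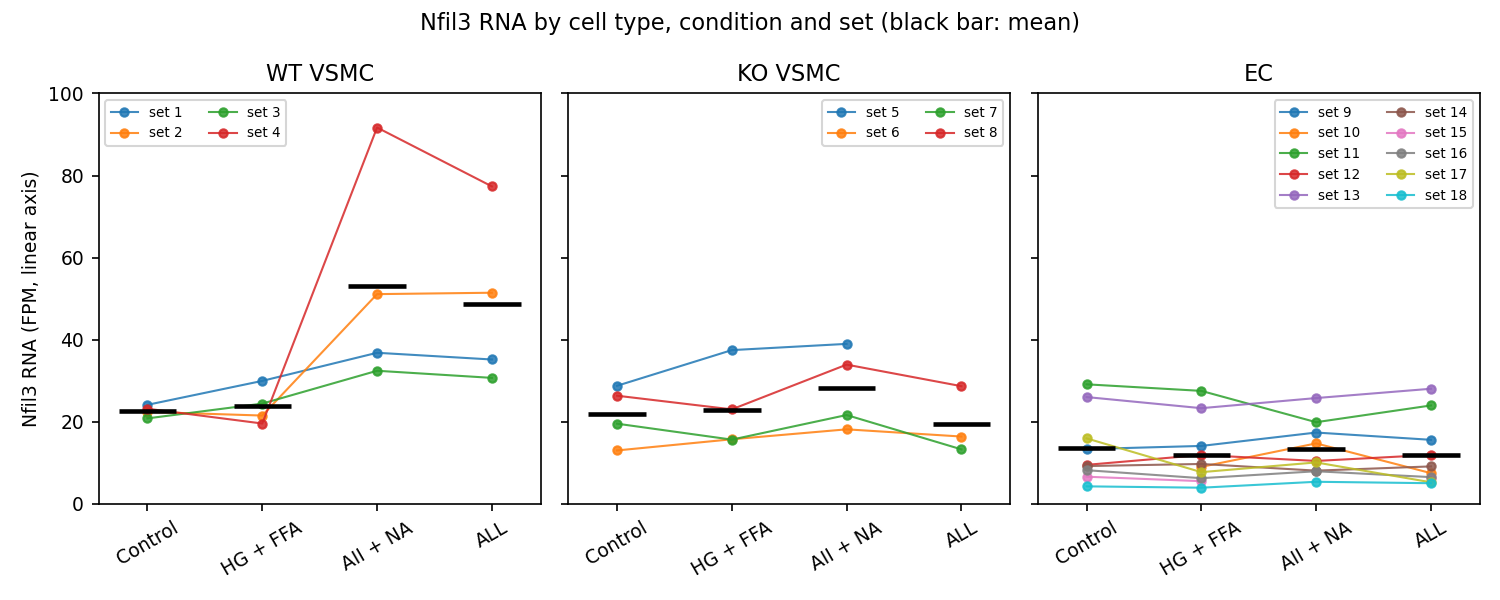
Nfil3 RNA (FPM, linear axis from 0) in each library, by condition and cell type, with a line for each set and a black bar at the group mean. In WT VSMC all 4 sets lie higher under AII + NA and ALL, up to 91.7 FPM in set 4, while KO VSMC stay at or under 39.0 FPM and EC at or under 29.1 FPM.

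In KO VSMC no member passed under any stressor in edgeR, where 0.439% of 17538 genes passed under the metabolic stressors, 0 under the humoral and 0.399% under ALL. At an unadjusted p under 0.05 edgeR had 2 members in each of these, where 12.4%, 9.76% and 10.5% of all genes lay under it. DESeq2 called 0, 0 and 1 members, and 246, 11 and 259 genes. Nfil3 stood at 28.8, 12.99, 19.5 and 26.3 FPM in Control sets 5 to 8 and at 39.0, 18.1, 21.6 and 33.9 FPM under AII + NA, higher in 4 of 4 sets. The groups overlapped, and the log2FC of 0.36 ± 0.13 (SE) had an unadjusted p of 0.0173 and an edgeR FDR of 0.509. Under ALL stressors sets 6 to 8 stood at 16.4, 13.3 and 28.7 FPM, with a log2FC of 0.03 ± 0.15 (SE, edgeR FDR 0.957). The difference of the effects was tested in a joint model of both genotypes. WT minus KO was 0.99 ± 0.32 for ALL (SE, unadjusted p = 0.00507, edgeR FDR 0.409, DESeq2 0.155) and 0.78 ± 0.30 for AII + NA (SE, unadjusted p = 0.0160, edgeR FDR 0.395, DESeq2 0.314). Neither passed, and in this joint model 0.0109% of 18339 genes passed for ALL and 0 for AII + NA.

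In EC Nfil3 passed under no stressor in edgeR or DESeq2. Control libraries ranged from 4.24 to 29.1 FPM with a median of 9.48, and those under ALL from 5.01 to 28.0 FPM with a median of 8.28. The log2FC was -0.19 ± 0.14 for ALL (SE, edgeR FDR 0.522) and -0.02 ± 0.14 for AII + NA (SE, edgeR FDR 0.981). The effect of ALL stressors was larger in WT VSMC than in EC, by 1.21 ± 0.27 on the log2 scale (SE, edgeR FDR 0.0156, DESeq2 0.00160), where 0.511% of 19362 genes passed and 0.408% did so upwards. This call was lost without set 2 (1.14 ± 0.31, edgeR FDR 0.145), without set 4 (0.97 ± 0.26, edgeR FDR 0.165) and with the animal in place of the set as the block (1.27 ± 0.34, edgeR FDR 0.217). Without EC sets 9, 11 and 13 it stayed at 1.32 ± 0.31 (SE, edgeR FDR 0.0289). For AII + NA the difference was 1.15 ± 0.27 (SE, edgeR FDR 0.116, DESeq2 0.0123), where 0.0465% passed.

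The PAR bZIP activators, which bind the D-boxes that NFIL3 blocks, passed no stressor comparison. Tef stood at 171 to 219 FPM in Control WT VSMC and at 145 to 169 FPM under AII + NA, lower in 4 of 4 sets and without overlap, yet by only -0.22 ± 0.08 (SE, unadjusted p = 0.0110, edgeR FDR 0.324). Dbp in WT VSMC changed by 0.01 ± 0.13, -0.17 ± 0.13 and 0.08 ± 0.13 (SE) under HG + FFA, AII + NA and ALL. Dbp in KO VSMC stood at 45.6, 79.9, 72.4 and 46.7 FPM in Control sets 5 to 8 and at 69.8, 51.6 and 29.9 FPM under ALL in sets 6 to 8. It was lower in each of these sets, by -0.36 ± 0.14 (SE, unadjusted p = 0.0205, edgeR FDR 0.380). Hlf in WT VSMC rested on 0.343 to 0.839 FPM under Control and 0.654 to 1.89 FPM under HG + FFA, and its log2FC of 1.02 ± 0.42 (SE) had an edgeR FDR of 0.360.

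Of the period genes, which encode repressors of BMAL1 and CLOCK, Per2 came closest to the threshold. In WT VSMC it stood at 8.13, 5.93, 7.24 and 8.28 FPM in Control sets 1 to 4, at 10.9, 9.53, 9.72 and 8.69 FPM under HG + FFA and at 13.6, 7.92, 8.80 and 9.62 FPM under ALL. It was higher than its own Control in 4 of 4 sets in either condition, and HG + FFA did not overlap Control. The log2FC was 0.40 ± 0.13 for HG + FFA (SE, unadjusted p = 0.00601, edgeR FDR 0.209), where 0.538% of genes passed, and 0.43 ± 0.13 for ALL (SE, unadjusted p = 0.00420, edgeR FDR 0.0540, DESeq2 0.0262). With AII + NA Per2 stood at 7.15 to 8.32 FPM, a log2FC of 0.10 ± 0.13 (SE, edgeR FDR 0.859).

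In KO VSMC Per2 stood at 7.42, 15.2, 4.84 and 3.14 FPM in Control sets 5 to 8 and at 6.72, 17.5, 14.8 and 7.39 FPM under HG + FFA. Sets 6 to 8 were higher and set 5 was not. The log2FC was 0.70 ± 0.22 (SE, edgeR FDR 0.233), and without set 5 it was 0.97 ± 0.21 (SE) and passed with an edgeR FDR of 0.0213. Why set 5 differed was not tested. In EC Per2 changed by 0.00 ± 0.11 under HG + FFA and by 0.11 ± 0.11 (SE) under ALL. The difference between WT VSMC and EC was 0.40 ± 0.19 for HG + FFA (SE, unadjusted p = 0.0437), a comparison in which 0 genes passed in edgeR and 3 in DESeq2, and that between WT and KO VSMC -0.30 ± 0.26 (SE, unadjusted p = 0.270).

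Per1 and Per3 did not separate by condition. Under ALL stressors Per1 changed by -0.04 ± 0.10 (WT VSMC), -0.18 ± 0.13 (KO VSMC) and -0.16 ± 0.10 (EC), and Per3 by -0.06 ± 0.12, 0.04 ± 0.15 and -0.06 ± 0.09 (log2FC ± SE). Set differences were larger than these effects. Per1 stood at 43.3 to 61.6 FPM in the 4 libraries of WT VSMC set 1 and at 22.9 to 33.0 FPM in those of sets 2 to 4.

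Nr1d1, which encodes REV-ERB alpha, was lower under ALL stressors in each VSMC set. In WT VSMC it stood at 145, 58.1, 129 and 70.4 FPM in Control sets 1 to 4 and at 142, 48.6, 76.3 and 45.9 FPM under ALL. The groups overlapped, as the sets differed more from each other than the conditions did. The log2FC was -0.40 ± 0.13 (SE, unadjusted p = 0.00660, edgeR FDR 0.0708, DESeq2 0.0380), and without set 1 it was -0.55 ± 0.13 (SE) and passed with an edgeR FDR of 0.0262. In KO VSMC sets 6 to 8 Nr1d1 stood at 78.0, 69.7 and 33.6 FPM under Control and at 64.6, 38.4 and 26.4 FPM under ALL, with a log2FC of -0.47 ± 0.11 (SE, unadjusted p = 0.000806, edgeR FDR 0.104, DESeq2 0.0118). EC gave -0.06 ± 0.10 (SE, edgeR FDR 0.834), and neither WT minus KO (0.08 ± 0.18, edgeR FDR 0.943) nor WT minus EC (-0.35 ± 0.18, edgeR FDR 0.794) passed. Nr1d2, its paralogue, did not share this pattern in the values, with -0.04 ± 0.09 (WT VSMC), 0.12 ± 0.15 (KO VSMC) and 0.20 ± 0.09 (EC, all SE, edgeR FDR 0.844, 0.796 and 0.238).

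Ciart, a repressor of BMAL1 and CLOCK, was at 0.199 to 6.24 FPM throughout. In EC it stood at a median of 1.07 FPM under AII + NA and of 1.74 FPM under ALL, with ranges of 0.199 to 1.496 and 0.404 to 3.09 FPM. ALL against AII + NA gave 0.80 ± 0.31 (SE, unadjusted p = 0.0154, edgeR FDR 0.176), where 3.22% of 17148 genes passed. In EC no member passed against Control, while 3.53% of genes did under HG + FFA, 0 under AII + NA and 3.18% under ALL. At an unadjusted p under 0.05 edgeR had 2, 0 and 1 members in these comparisons, where 16.9%, 6.67% and 16.2% of all genes lay under it. DESeq2 called none of the members, and 969, 0 and 895 genes.

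**Figure D3:**
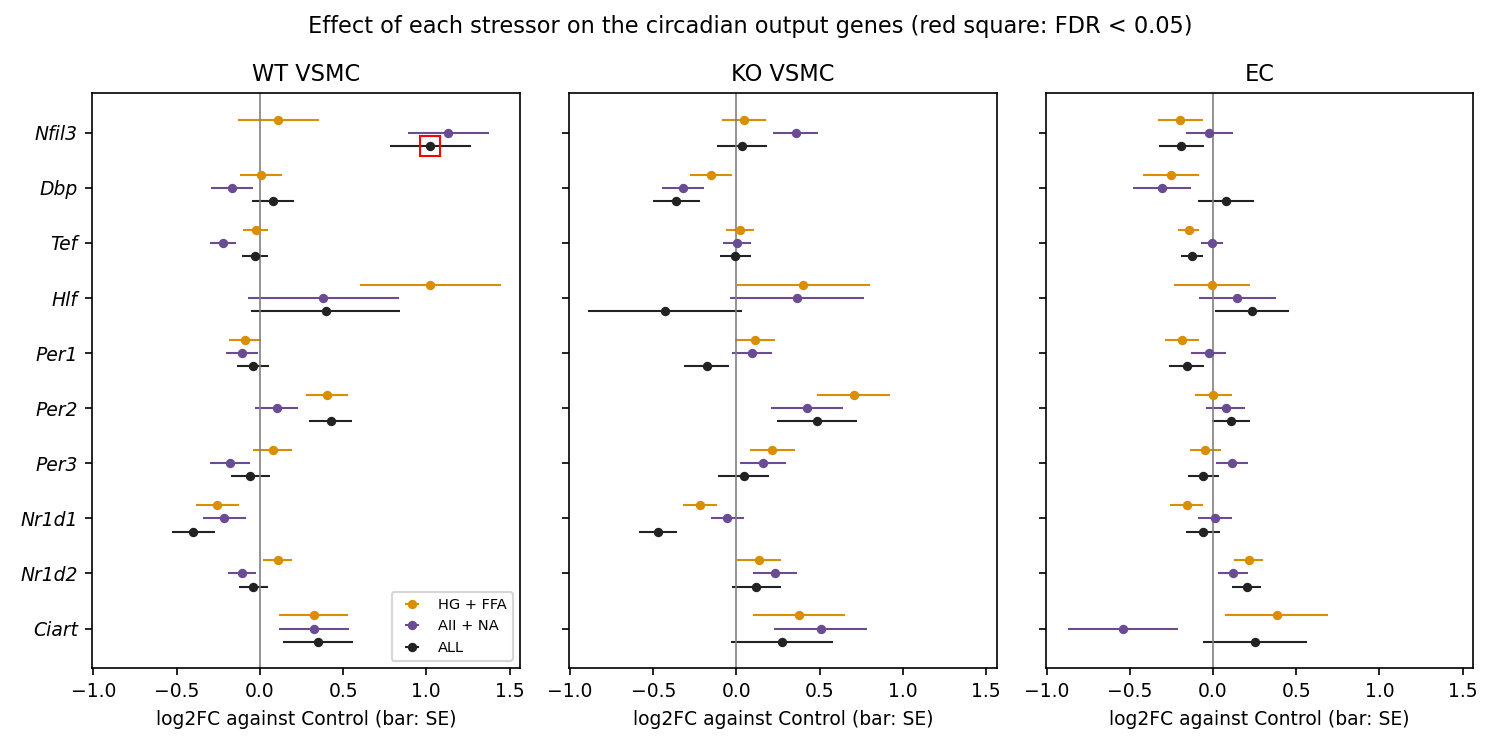
log2FC against Control (x axis) of each member (y axis) under HG + FFA, AII + NA and ALL in the 3 cell types, with bars for the SE and a red square where the edgeR FDR was under 0.05. Only Nfil3 under ALL in WT VSMC, at 1.02, is marked, and the point for AII + NA beside it lies at 1.13 without passing.

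Between Control cells of different origin, Dbp was the only member to pass in edgeR with all sets included. It stood at 82.8, 61.98, 107 and 60.6 FPM in WT VSMC and at 17.7 to 45.5 FPM in EC (median 30.2, n = 9), without overlap. The log2FC of EC against WT VSMC was -1.28 ± 0.22 (SE, edgeR FDR 0.00411), where 12% of 17115 genes passed and 5.35% were lower. KO VSMC were at 45.6 to 79.9 FPM. Without EC sets 9, 11 and 13 the difference was -1.11 ± 0.20 (SE, edgeR FDR 0.00299), and it passed in all 18 alternatives tried.

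Hlf, Per2 and Nr1d1 differed between EC and WT VSMC by 3.13 ± 1.16, 0.89 ± 0.28 and -0.93 ± 0.30 (SE) and did not pass in edgeR (FDR 0.0865, 0.0553 and 0.0581), but did in DESeq2 (0.00584, 0.0166 and 0.0301). Without EC sets 9, 11 and 13 each passed in edgeR with 3.66 ± 0.96, 1.08 ± 0.20 and -1.02 ± 0.29 (SE, FDR 0.0164, 0.00328 and 0.0214), and Nfil3 passed as well with -1.29 ± 0.30 (SE, FDR 0.00982), against -0.72 ± 0.41 (SE, FDR 0.258) over all sets. KO VSMC and WT VSMC differed in no member by edgeR, where 0.00622% of 16089 genes passed. Per1 with -0.73 ± 0.25 (SE, unadjusted p = 0.0164, edgeR FDR 0.385) and Nr1d1 with -0.76 ± 0.34 (SE, unadjusted p = 0.0496, edgeR FDR 0.409) lay below an unadjusted p of 0.05, and DESeq2 gave 0.173 and 0.292.

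Within EC, Hlf, Ciart and Nfil3 varied among sets together with the marker RNA. Averaged over the libraries of a set, Hlf stood at 10.2, 13.1, 11.5 and 10.0 FPM in sets 10, 12, 14 and 15, where the endothelial markers summed to 1823, 4072, 3588 and 2837 FPM. It stood at 3.79 FPM in set 18, with 3566 FPM of markers, and at 0.174 to 1.96 FPM in sets 9, 11, 13, 16 and 17, with 50.2 to 758 FPM. Sets 17 and 18, from a single animal, thus differed in Hlf (0.772 and 3.79 FPM) and in marker RNA (535 and 3566 FPM).

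Nfil3 ran the other way, with 15.1, 25.1 and 25.8 FPM in sets 9, 11 and 13 and 4.63 to 10.9 FPM in the other EC sets. Ciart stood at 0.534, 0.491 and 0.815 FPM in sets 9, 11 and 13 and at 0.899 to 2.23 FPM in the others. The fibroblast markers summed to 3645, 8696 and 9909 FPM in sets 9, 11 and 13 and to 605 to 4321 FPM in the others. The smooth muscle markers summed to 847, 3182 and 2940 FPM in sets 9, 11 and 13 and to 214 to 728 FPM in the others. In fibroblast markers set 9 thus lay within the range of the other sets. No correlation is given, because the sets fall into separate levels of endothelial marker RNA. The part of the marker RNA in the levels of Hlf, Nfil3 and Ciart was not tested.

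**Figure D4:**
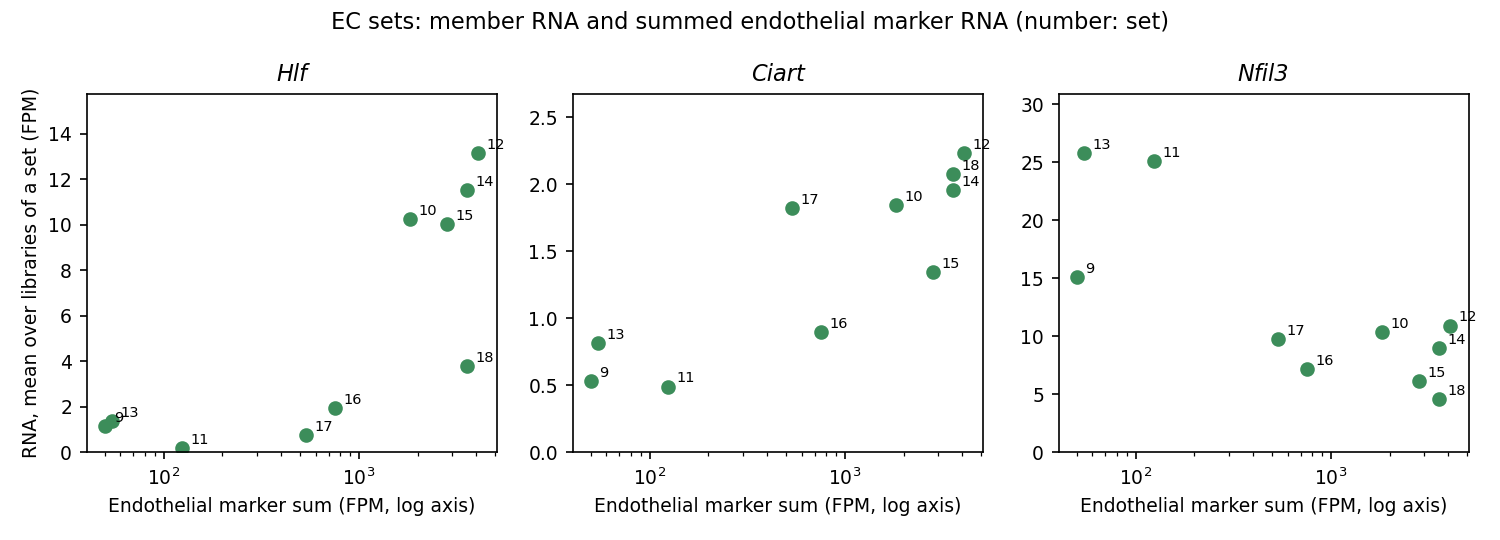
Mean RNA of Hlf, Ciart and Nfil3 (FPM, linear axis) in each EC set against the summed RNA of 7 endothelial markers (FPM, log axis), with the set number beside each point. Sets 9, 11 and 13, at 50.2 to 125 FPM of marker RNA, have the highest Nfil3 and low Hlf and Ciart.

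The calls among the other clock genes stand beside these shares of all genes in edgeR. In WT VSMC 0.538%, 0.0532% and 7.45% passed under HG + FFA, AII + NA and ALL. In KO VSMC 0.439%, 0 and 0.399% did, and in EC 3.53%, 0 and 3.18%. Of the 4 activators Bmal1, Clock, Npas2 and Bmal2, 0 passed under any stressor in VSMC in edgeR, and Bmal1 fell in EC, by -0.40 ± 0.10 under HG + FFA (SE, edgeR FDR 0.0238) and by -0.45 ± 0.10 under ALL (SE, edgeR FDR 0.0105), staying under the fold threshold of the DEG rule. In WT VSMC Bmal1 changed by -0.29 ± 0.14 and -0.25 ± 0.14 (SE, edgeR FDR 0.441 and 0.314) in these conditions. Clock changed by 0.01 ± 0.10 in WT VSMC and 0.16 ± 0.10 in EC under ALL (SE, edgeR FDR 0.970 and 0.461). Of the 4 repressors Cry1, Cry2, Bhlhe40 and Bhlhe41, Cry1 rose in WT VSMC under ALL by 0.41 ± 0.11 (SE, edgeR FDR 0.0287). In KO VSMC Cry1 changed by 0.47 ± 0.16 (SE, edgeR FDR 0.293) and in EC by 0.06 ± 0.11 (SE, edgeR FDR 0.857). The median log2FC of the 4 activators in EC under ALL was 0.02 and that of the 4 repressors in WT VSMC under ALL was -0.01, against -0.01 over all genes in either comparison.

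Of the 3 ROR receptors, 2 were tested in WT VSMC and EC and 3 in KO VSMC, and neither these nor the 5 clock protein turnover genes and the 5 further clock-associated genes passed against Control in any cell type in edgeR. DESeq2 called Csnk1e, a casein kinase gene, in WT VSMC under ALL (edgeR log2FC 0.21 ± 0.06 SE, DESeq2 FDR 0.0170) and in EC under HG + FFA (0.18 ± 0.06 SE, DESeq2 FDR 0.0415), and Noct in EC under HG + FFA (0.39 ± 0.13 SE, DESeq2 FDR 0.0495). Of 7 acute response genes Egr1, an immediate early transcription factor, fell in WT VSMC under ALL by -1.05 ± 0.27 (SE, edgeR FDR 0.0262) and in EC by -0.83 ± 0.15 under HG + FFA (SE, edgeR FDR 0.000963) and by -0.82 ± 0.15 under ALL (SE, edgeR FDR 0.00106). In EC under ALL against AII + NA Egr1 and Nr4a1, an orphan nuclear receptor, were lower by -0.71 ± 0.15 and -0.40 ± 0.10 (SE, edgeR FDR 0.00467 and 0.0145). Of all genes, 3.22% passed that comparison. Of the glucocorticoid response genes, 3 of 4 were tested, and Tsc22d3 (GILZ) fell in EC under HG + FFA by -0.34 ± 0.08 (SE, edgeR FDR 0.00724). Between Control EC and WT VSMC, Bhlhe41, the deubiquitinase gene Usp2, Nr4a3 and Fkbp5 were lower in EC by -1.25 ± 0.35, -0.94 ± 0.28, -1.75 ± 0.43 and -1.60 ± 0.37 (SE, edgeR FDR 0.0342, 0.0429, 0.0204 and 0.0173). Of all 17115 genes 12% passed this comparison and 5.35% were lower in EC.

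Across the 8 VSMC animals Ciart, Per1 and Nr1d2 varied with Bmal1. For each animal the deviation of log2(FPM + 0.1) from the mean of its genotype and condition was averaged over conditions. Pearson's r with Bmal1 was 0.874 for Ciart (exact permutation p = 0.00489, Spearman's rho 0.810, exact permutation p = 0.0218), 0.853 for Per1 (exact permutation p = 0.00407, rho 0.738, exact permutation p = 0.0458) and 0.848 for Nr1d2 (exact permutation p = 0.0109, rho 0.690, exact permutation p = 0.0694). Adjusted over the 10 correlations these p were 0.0244, 0.0244 and 0.0363 (two-sided, exact permutation), and no other member passed. The permutation ran over all pairings of the 8 animals, also across genotypes. As genotype means had been subtracted first, these p are approximate and may be too small. Tef had an r of 0.608 and Hlf of -0.682 (adjusted exact permutation p = 0.160 and 0.111). Tef held an E-box in its window, as did Ciart and Per1, while Nr1d2 held none. Whether E-boxes bear on these correlations was not tested. Nr1d1 had an r of 0.763 and Nfil3 of -0.269 (adjusted exact permutation p = 0.0849 and 0.557).

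Without the pair of animals farthest from the median of Bmal1, which includes WT set 1, r was 0.4655 for Ciart, 0.571 for Per1 and 0.205 for Nr1d2. Leaving them out also narrows the range of Bmal1, so the lower r cannot tell whether the relation rests on these animals. In Control libraries alone r was 0.903, 0.883 and 0.894 in the same order and 0.662, 0.879 and 0.735 without the farthest pair there. WT set 1 had the highest Bmal1, at 14.3 to 17.2 FPM against 6.30 to 12.1 FPM in WT sets 2 to 4. Across the 9 EC animals no correlation passed, the largest being that of Ciart with r = 0.728 (exact permutation p = 0.0157, adjusted over the 10 correlations 0.157, rho 0.733, exact permutation p = 0.0311), which was 0.471 without the pair farthest from the median. WT and KO animals alone are too few for a value within genotype.

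**Figure D5:**
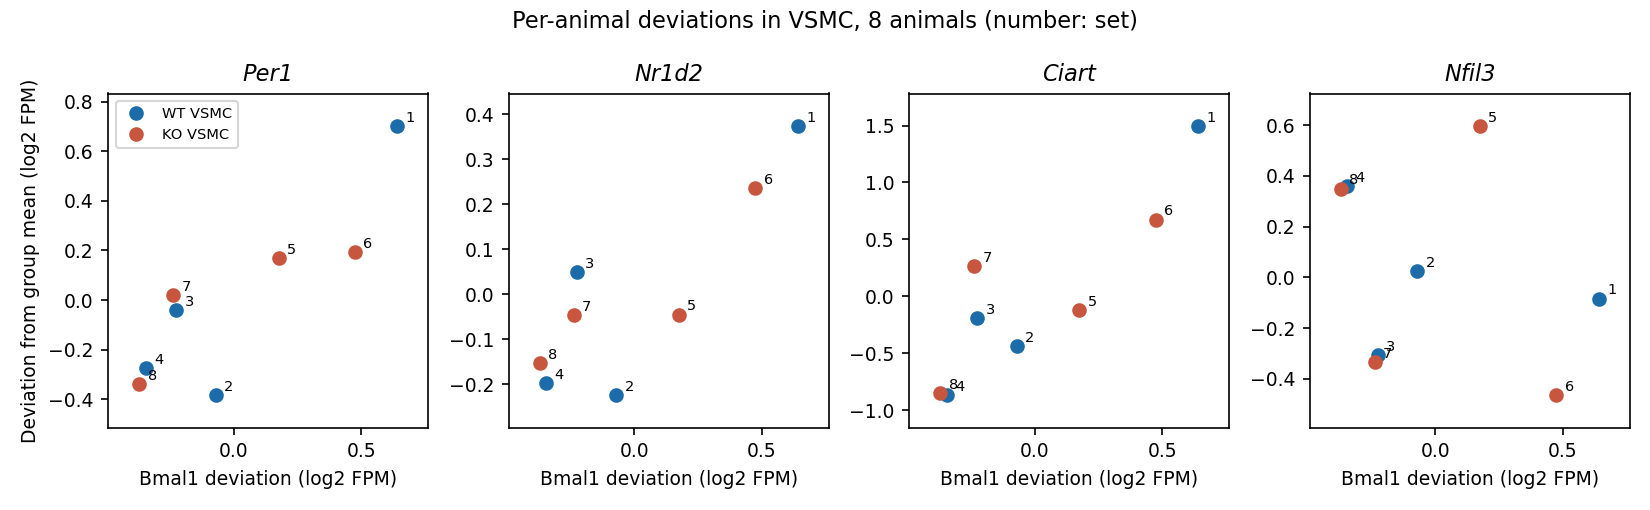
Deviation of Per1, Nr1d2, Ciart and Nfil3 (log2 FPM, y axes) from the mean of genotype and condition against that of Bmal1 (x axis) in 8 VSMC animals, with the set number beside each point. Set 1 lies highest for Bmal1, Per1, Nr1d2 and Ciart, and Nfil3 shows no such order (r = -0.269).

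The protein-coding genes most like Nfil3 were ranked by Pearson's r of log2(FPM + 0.1) after the mean of each set had been subtracted. Over the 16 WT VSMC libraries and 11203 genes these were Tpm4, a tropomyosin, with r = 0.983, Ankrd1, an ankyrin repeat protein, with 0.980, Tnfaip1 with 0.979, Rasl11b with 0.974 and Dusp8, a MAP kinase phosphatase, with 0.971. The 38 EC libraries and 11334 genes gave, among others, Med17 (r = 0.698), Rab10 (0.686), Bmal1 (0.660) and Tlcd3a (0.653). These values describe the libraries, which share sets and treatments, and carry no test.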

How the data were processed

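RNA-Seq counts of 69 libraries (poly(A) RNA, paired reads) were used. The authors aligned reads with HISAT2 2.1.0 to mm39 (submitters' processing notes), counted them over exons with featureCounts, reads with several alignments included, and deposited raw counts per gene, without normalization. Ensembl identifiers were matched to symbols and exons of the GENCODE annotation of GRCm39 (56310 of 56953, the others holding 0.0241% of counts). The strand setting and the handling of read pairs are not stated.

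Counts were fitted in edgeR 4.0.16 (R 4.3.3, limma 3.58.1) per cell type, with TMM, filterByExpr and the set number as a block, and tested by quasi-likelihood, with Benjamini-Hochberg FDR over all genes and a threshold of 0.05. The same model was fitted in DESeq2 1.42.0, whose adjusted p is given as its FDR. Differences of effects came from joint models. Control cells were compared without a block. The DEG rule was FDR under 0.05 in both tools, |log2FC| of at least 0.64, at least 3 FPM and a protein-coding or lncRNA gene. The pseudocount was 0.1 FPM. Figures were drawn with Python 3.11.15 and matplotlib 3.10.9.

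Libraries were paired by set number, as these numbers mark cells of the same animal treated together. Deviations of libraries of a set from the condition means correlated with a mean r of 0.797 (WT VSMC), 0.780 (KO VSMC) and 0.819 (EC), and of at least 0.494.

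The members and gene lists were chosen with earlier results of these data known. All 10 members are named, further clock genes where they passed, and Bmal1, Clock and Cry1 in any case. The 5 protein-coding genes most like Nfil3 among those with at least 3 FPM are named too, except 1 in EC that is not reported here. Alternatives were a fit in DESeq2, edgeR with the size factors of DESeq2, a fit without filterByExpr, without the block or with the groups compared alone, leaving out sets 1 by 1, blocking by animal, sets 17 and 18 summed and the DEG rule, and, chosen after seeing the data, EC without sets 9, 11 and 13. On simulated data for ALL against Control in WT VSMC (16905 genes), edgeR called 71% of 100 genes changed by 0.75 and 77% of 100 changed by 1 on the log2 scale, with 4 false calls. No other gene was changed, and each change was the same in every set, so these rates need not hold for the members.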

Additional observations from a re-analysis of the deposited data

Results flagged for a closer look

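Per1 in WT VSMC under ALL stressors had a library far above the others, set 1 with 61.6 FPM, where the next stood at 27.8 and the lowest at 23.6 FPM. Ciart in Control WT VSMC stood likewise apart in set 1, with 5.29 FPM against 1.17 FPM in the next and 0.875 FPM in the lowest. Of 110 groups of 4 to 10 libraries examined over the 10 genes, these 2 exceeded Dixon's limit, where chance gives about 5%. The libraries of set 1 share an animal, so that these are not independent of each other.

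The effect of ALL stressors on Nfil3 differed between WT VSMC and EC by 1.21 ± 0.27 on the log2 scale (SE, edgeR FDR 0.0156). EC sets 9 and 10 share animals with WT VSMC sets 1 and 2. The call was lost without set 2 (edgeR FDR 0.145) and without set 4 (edgeR FDR 0.165). It was also lost with the animal as the block (1.27 ± 0.34 SE, edgeR FDR 0.217). That block differs from the set block only in joining the EC sets that came from a single animal. It keeps the cell types apart, so animals shared between cell types were not modelled here. Under ALL stressors Nfil3 was higher than Control in 4 of 4 WT VSMC sets and in 4 of 9 EC sets.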

How the results depend on the processing

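Counts of members past the threshold moved under the following alternatives. DESeq2 gave 3 for ALL in WT VSMC (Per2, Nr1d1 and Nfil3), 4 for EC against WT VSMC (Per2, Dbp, Nr1d1 and Hlf), and 1 for AII + NA in WT VSMC and for its WT VSMC minus EC difference (Nfil3) and for ALL and ALL against AII + NA in KO VSMC (Nr1d1). Without the count filter, where the SE of Nfil3 in WT VSMC under ALL fell from 0.245 to 0.0986, the numbers were 3 for ALL in WT VSMC and 1 each for HG + FFA (Hlf), AII + NA and ALL against HG + FFA (Nfil3) in WT VSMC, HG + FFA (Per2) and ALL (Nr1d1) in KO VSMC, ALL against AII + NA and additivity in EC (Dbp), the WT minus KO differences for AII + NA and ALL and the WT VSMC minus EC difference for AII + NA (Nfil3). The cause was not tested. With only the groups compared, 1 passed for AII + NA in WT VSMC (Nfil3) and for ALL against AII + NA in KO VSMC (Nr1d1). Without the replicate block 0 passed for ALL in WT VSMC and for the WT VSMC minus EC difference for ALL, and with the animal as the block 0 passed for that difference. Leaving out each set in turn gave 0 to 2 for ALL in WT VSMC, 0 to 1 for HG + FFA in KO VSMC and for the WT VSMC minus EC differences for AII + NA and for ALL, and 1 to 3 for EC against WT VSMC. EC without sets 9, 11 and 13 gave 5 for EC against WT VSMC. Over all genes, 91, 9 and 1259 passed in WT VSMC under HG + FFA, AII + NA and ALL, against 294, 169 and 1645 in DESeq2 and 0 in each without the replicate block. In EC 605 and 546 passed under HG + FFA and ALL, against 969 and 895 in DESeq2, 157 and 134 with the animal as the block and 2 each without the replicate block.

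Of 3320 log2FC of single members under alternatives, 3038 kept their direction and side of the threshold, 241 that passed in neither fit changed sign, 35 gained and 6 lost a call, and none changed sign with a call. Samples are few, and Hlf and Ciart rest on few counts. Each SE of a log2FC covers only the residual spread of its fit, pooled over the conditions fitted. Where the set was a block, level differences between sets are left out of it.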
